A study of Mus musculus with 5 samples.

Results

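The regulators that build limb muscle were followed in mouse forelimb tissue of E11.5: Pax3, Pax7, Lbx1, Met, Myf5, Myod1, Myog, Msc and Mef2c. The members were all probe sets whose gene symbol in the platform annotation was one of these 9 names. That gave 9 of the 18193 genes with a symbol of their own and 19 of the 45037 probe sets tested, with 1 to 5 probe sets per gene. The 2 double mutant arrays came from embryos of genotype Sost-/-; Sostdc1-/- and the 3 wild type arrays from wild-type embryos, all fore-limb tissue on a C57Bl/6 background with no treatment. Sost and Sostdc1 encode secreted antagonists of Wnt signalling, and Sostdc1 also acts on BMP signals. Per the labels embryos were not pooled and the arrays were biological replicates. The labels name no Cre or tissue-specific allele, so the genotype is that of the whole embryo. The single comparison of the design asked how the limb transcriptome differs when both antagonists are missing.

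Limb muscle does not form from limb mesenchyme. Its precursors leave the lateral lip of the somites opposite the limb, under the transcription factor Pax3, and travel into the bud with the help of the receptor Met, which senses HGF made by the mesenchyme, and the homeobox factor Lbx1. Inside the bud they switch on the myogenic basic helix-loop-helix (bHLH) factors Myf5 and Myod1, then Myog, and with Mef2 proteins these drive the genes of the contractile apparatus. Fewer muscle precursors in a bud and less RNA per precursor cannot be told apart in whole-bud RNA.

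As a check of the labels, Sost on 1450179_at read 4.16 and 4.43 on the log2 scale in double mutants and 6.75, 6.19 and 6.47 in wild type (-2.17 ± 0.20, SE, limma adjusted p = 0.0091), and its other probe set, 1421245_at, was dim and not called (adjusted p = 0.237). Sostdc1 on 1460250_at read 6.28 and 7.35 against 9.42, 8.94 and 9.15 (-2.35 ± 0.37, adjusted p = 0.0233). Its brighter companion 1449340_at read 8.90 and 8.96 against 8.75, 8.90 and 9.01 and was not called (adjusted p = 0.775). Where each probe set lies relative to the deleted part of its gene was not known here, and one outside it checks nothing. Xist stood at 12.37 and 11.75 in double mutants 1 and 2 while the Y-linked Eif2s3y stood at 8.36 in both, so both arrays held transcripts of both kinds, and whether each held RNA of 1 embryo was not tested. In wild type, replicate 1 had Xist alone and replicates 2 and 3 had Eif2s3y alone. The poly-A spike-in Dap, which comes from no mouse gene, ran from 6.90 to 7.28 in double mutants and from 3.23 to 3.36 in wild type, and whatever differed in sample preparation cannot be told apart from genotype in what follows. All 10 measured markers of limb mesenchyme exceeded the median probe set level, 5.41 on the log2 scale, and 0 of 6 cardiac markers did.

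The largest difference lay on 1 Met probe set, and the next called one, at a bright level, was that of Myod1. Of the 19 probe sets, 3 fell in double mutants, those being 1 each of Met, Myod1 and Lbx1, 0 rose, and 16 were not called (limma, Benjamini-Hochberg adjusted p under 0.05 over all 45037 probe sets). That is 15.8% of the members, where 18.2% of all probe sets were called, 9.52% lower and 8.7% higher, so the share of members called was near the background. An unadjusted p under 0.05 was reached by 10 of 19 members (52.6%) and by 32.2% of all probe sets. A second rule, an unadjusted p under 0.01 with at least 1.5-fold change, took 3 members lower and 0 higher, where it took 13.3% of all probe sets, 6.87% lower and 6.38% higher. The groups did not overlap in 12 of 19 members, against 45.2% of all probe sets. Of the 19 members 16 were brighter than the median probe set. Among those 16, 18.8% were called, 56.2% reached an unadjusted p under 0.05 and 68.8% did not overlap, where all probe sets as bright gave 27.6%, 45.8% and 60.7%. The median difference over the members was -0.40 on the log2 scale and over all probe sets -0.01. The mean was lower in double mutants for 14 of the 19.

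**Figure D1:**
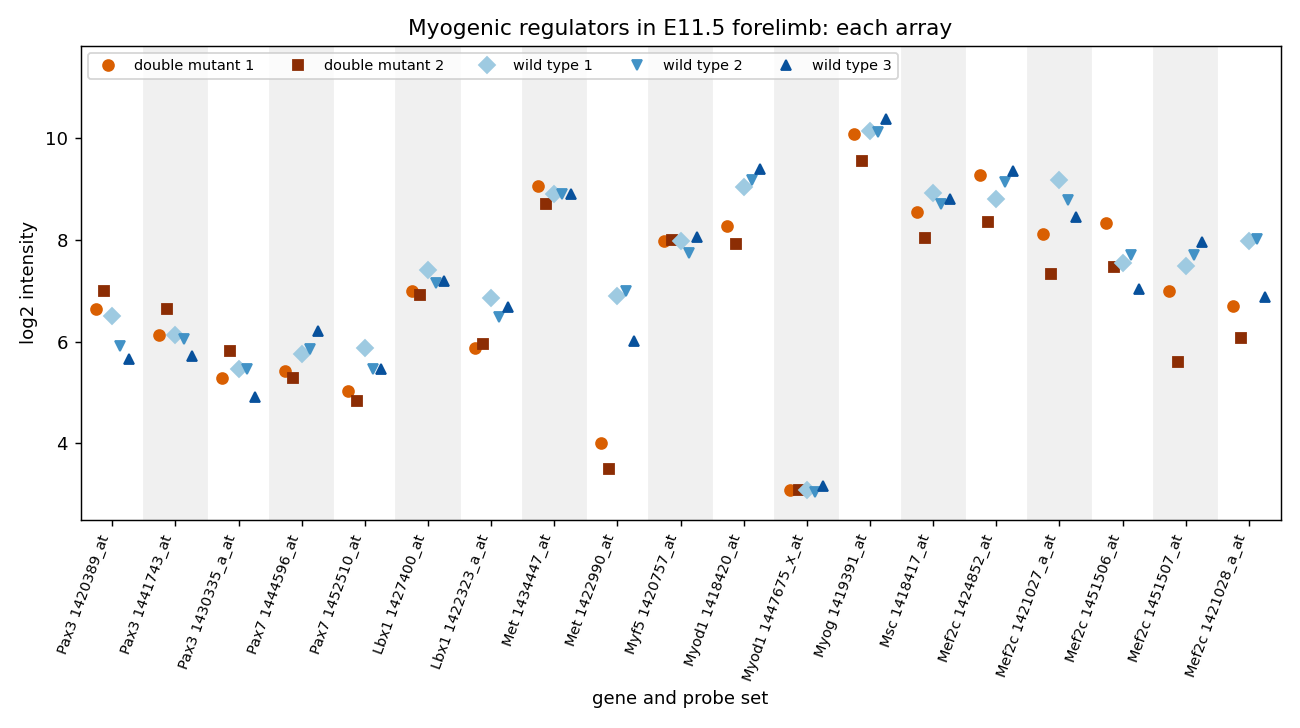
Log2 intensity (vertical axis) of each of the 19 probe sets (horizontal axis) in the 2 double mutant and 3 wild type arrays, 1 point per array. Both double mutant points lie under all wild type points for Met 1422990_at, Myod1 1418420_at and both Lbx1 probe sets, while the groups of Myf5 overlap; levels of different probe sets are not comparable.

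Pax3, the paired-box factor at the head of the pathway, had higher means in double mutants on all its probe sets. On 1420389_at it read 6.64 and 7.00 in double mutants 1 and 2, and 6.51, 5.92 and 5.66 in wild type replicates 1 to 3. Both double mutants were above every wild type array, by a narrow margin over wild type 1, and the difference was 0.79 ± 0.30 (SE, adjusted p = 0.160). On 1441743_at the values were 6.12 and 6.64 against 6.12, 6.04 and 5.72, and on 1430335_a_at they were 5.29 and 5.82 against 5.46, 5.46 and 4.90. These groups overlapped, with differences of 0.42 ± 0.21 (adjusted p = 0.273) and 0.28 ± 0.26 (adjusted p = 0.521). None of the 3 was called, with 95% intervals of the difference from -0.01 to 1.59, from -0.16 to 0.99 and from -0.44 to 0.99. Double mutant 2 was the highest of the 5 arrays on each of them.

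Pax7, the paralog of Pax3 that marks a later progenitor pool, was lower in the mean on both of its probe sets. On 1444596_at it read 5.42 and 5.28 in double mutants, and 5.76, 5.85 and 6.21 in wild type. On 1452510_at it read 5.04 and 4.84 against 5.88, 5.47 and 5.47. Neither pair of groups overlapped, yet the calls were missed, at -0.59 ± 0.16 (SE, adjusted p = 0.0759) and -0.67 ± 0.17 (adjusted p = 0.0646). Averaged over both probe sets within each array the Pax7 difference was -0.63 ± 0.09, and this was called (adjusted p = 0.0128 over all genes). All Pax7 levels were close to the median of all probe sets, so they were dim.

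Lbx1, a homeobox factor that precursors need to enter the limb, fell on 1 probe set. On 1422323_a_at it read 5.88 and 5.96 in double mutants, and 6.86, 6.49 and 6.68 in wild type. The groups stood apart, with a difference of -0.75 ± 0.13 (SE, adjusted p = 0.0270), a 1.69-fold change. On the brighter 1427400_at it read 6.98 and 6.91 against 7.41, 7.15 and 7.19, again without overlap, at -0.31 ± 0.10 (adjusted p = 0.120). The change was larger on the dimmer probe set, by 0.45 ± 0.11 in a fit of the within-array contrast (adjusted p = 0.0358) that was added after the data were seen, and 29.5% of the 9010 genes with at least 2 probe sets gave a call in that fit.

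The Met probe sets gave unlike answers. On 1422990_at Met read 4.01 and 3.50 in double mutants, and 6.90, 6.99 and 6.02 in wild type. Both double mutants lay far under every wild type array, and the difference was -2.88 ± 0.37 (SE, adjusted p = 0.0161), a 7.35-fold fall to levels near that of Trpn, a bacterial control sequence (3.05 to 3.14 across the arrays), which leaves the size of the fall uncertain. On the brighter 1434447_at Met read 9.05 and 8.69 in double mutants and 8.90 in all 3 wild type arrays, to 6 decimals of the intensity the same value. That difference was -0.03 ± 0.12 (adjusted p = 0.890, 95% interval from -0.36 to 0.30), so a fall like that on the other probe set lies outside its interval. The equal values give a wild type SD of 0, so the interval does not measure wild type spread and may be too narrow. The contrast between the probe sets differed between genotypes by 2.85 ± 0.32 (adjusted p = 0.0034). The place of each probe set on the Met transcript was not known here, and which of them reports Met in muscle precursors was not tested.

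For Met, the gene with the largest difference, the 250 bases before the start in the RefSeq promoter table (GRCm38.p6, chr6:17463707-17463956, plus strand) are shown with E-boxes, the letters CANNTG that bHLH factors bind, in capitals.
Met: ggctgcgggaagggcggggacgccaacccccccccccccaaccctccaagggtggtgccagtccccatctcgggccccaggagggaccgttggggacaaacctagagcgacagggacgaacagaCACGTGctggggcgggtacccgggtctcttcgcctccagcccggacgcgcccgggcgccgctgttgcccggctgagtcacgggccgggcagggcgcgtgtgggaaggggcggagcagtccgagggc
It holds 1 E-box, CACGTG, 126 to 121 bases before the start.

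Among the bHLH factors Myod1 fell, while Myf5, Myog and Msc were not called. Myod1 on 1418420_at read 8.27 and 7.92 in double mutants, and 9.04, 9.17 and 9.38 in wild type. The groups stood clearly apart, with a difference of -1.10 ± 0.16 (SE, adjusted p = 0.0194), a 2.15-fold fall at a bright level. The second Myod1 probe set, 1447675_x_at, lay between 3.04 and 3.16 in all 5 arrays, as low as Trpn (adjusted p = 0.868). Myf5, the bHLH factor expressed earliest, read 7.98 and 7.99 in double mutants and 7.98, 7.75 and 8.06 in wild type. Its groups overlapped fully, at 0.05 ± 0.11 (adjusted p = 0.766, 95% interval from -0.24 to 0.35). Whether the Myod1 and Myf5 differences differ from each other was not tested.

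Myog, which acts after both and is needed for fibres to form, read 10.06 and 9.55 in double mutants, and 10.13, 10.11 and 10.37 in wild type. Double mutant 1 lay just under the wild type range and double mutant 2 well under it, and the difference of -0.40 ± 0.19 (SE) was not called (adjusted p = 0.243). Msc, also called MyoR, a bHLH repressor of muscle genes present in precursors, read 8.55 and 8.03 against 8.90, 8.71 and 8.80. The groups did not overlap, at -0.52 ± 0.18 (adjusted p = 0.132). In both genes double mutant 2 was the lowest array.

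**Figure D2:**
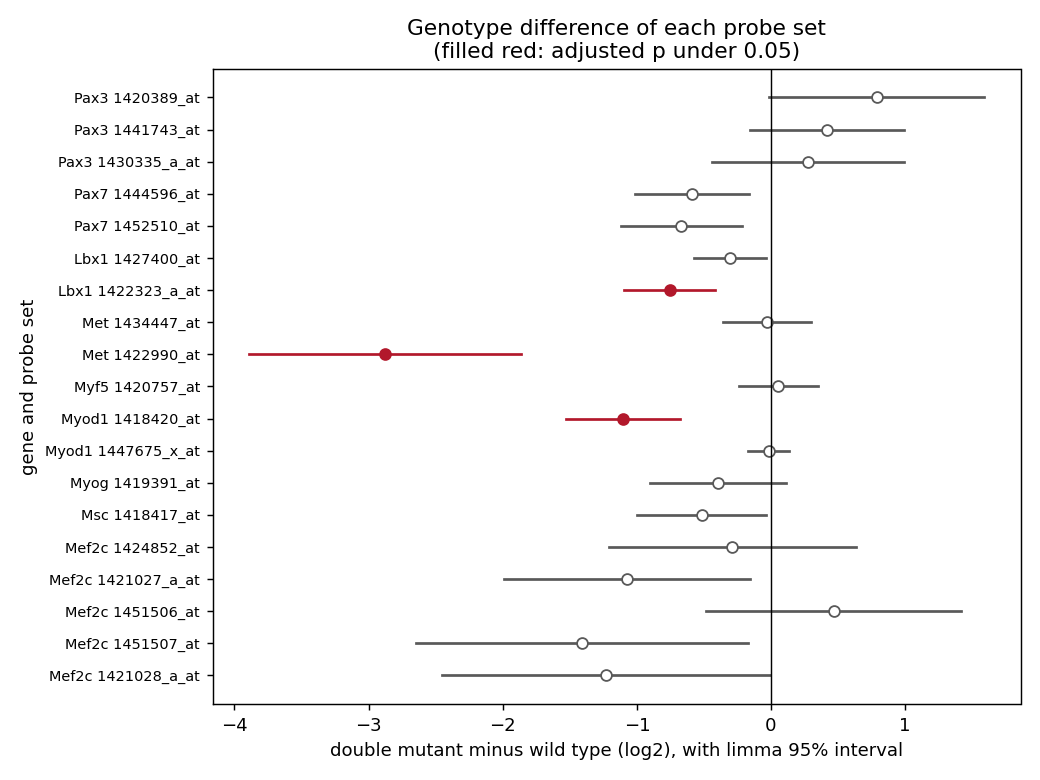
Double mutant minus wild type difference in log2 units (horizontal axis, points) with limma's 95% interval (lines) for each of the 19 probe sets (vertical axis); filled red points passed an adjusted p under 0.05. The 3 called probe sets, of Lbx1, Met and Myod1, all lie below 0, and all 3 Pax3 points lie above 0 uncalled.

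The Myog promoter is shown because it is the best known meeting point of these factors: E-boxes, bound by Myod1 and Myf5, and a site for Mef2 proteins. The 250 bases before its start in the RefSeq table (GRCm38.p6, chr1:134289754-134290003, plus strand) have in capitals the E-boxes and a match to the letters CTANNNNTA, a loose core of Mef2 sites. The stricter Mef2 consensus was searched first and had 0 matches in this window and in the 7 member windows, where 2.92% of all windows held one, and the loose core was chosen after that result was seen.
Myog: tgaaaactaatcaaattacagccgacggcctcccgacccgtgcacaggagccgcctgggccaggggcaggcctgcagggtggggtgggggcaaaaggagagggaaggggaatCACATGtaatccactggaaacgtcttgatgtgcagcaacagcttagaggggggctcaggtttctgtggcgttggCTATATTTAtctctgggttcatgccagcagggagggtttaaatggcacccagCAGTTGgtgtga
It holds 2 E-boxes, CACATG and CAGTTG, and 1 match to the Mef2 core, CTATATTTA, 64 to 56 bases before the start, with no overlap between them. Both motifs were read on both strands. At least 1 E-box was found in 66.2% of all 32851 promoter windows of that length, at least 2 in 31.8% and a CTANNNNTA match in 19.0%. The table held 5 of the 9 member genes. Pax7 and Myf5 had 0 E-boxes in their windows, and of 3 windows of Mef2c the E-box counts were 2, 0 and 1. Such matches describe letters, not binding.

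Mef2c, a MADS-box factor that works with the bHLH factors and is also expressed in endothelium, had 5 probe sets, and none was called. The within-array contrast used for Lbx1 and Met was not called between its brightest pair (0.79 ± 0.37, SE, adjusted p = 0.176). On its brightest, 1424852_at, it read 9.28 and 8.34 in double mutants and 8.81, 9.13 and 9.35 in wild type (difference -0.29 ± 0.34, SE, adjusted p = 0.602). On 1451506_at the values were 8.33 and 7.46 against 7.55, 7.70 and 7.03, the 1 Mef2c probe set with a higher mean in double mutants (0.47 ± 0.35, adjusted p = 0.419). Both pairs of groups overlapped.

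The other Mef2c probe sets were lower in the mean without overlap between groups. On 1451507_at Mef2c read 7.00 and 5.61 against 7.49, 7.69 and 7.95 (difference -1.41 ± 0.46, SE, adjusted p = 0.118). On 1421027_a_at it read 8.12 and 7.32 against 9.17, 8.79 and 8.43 (-1.08 ± 0.34, adjusted p = 0.110), and on 1421028_a_at 6.71 and 6.08 against 7.97, 8.02 and 6.87 (-1.23 ± 0.45, adjusted p = 0.154). Double mutant 2 was below double mutant 1 on all of its probe sets. By brightest probe sets 5 of 10 endothelial markers fell and 0 rose, where 14.7% of all genes were called, led by Pecam1 (-1.98 ± 0.13, SE, adjusted p = 0.0066), while Cdh5, Kdr and Tek differed by -0.06 to -0.03. Their other probe sets gave 3 calls higher and 1 lower. The summed intensity of the 10 markers was 2116 to 2265 in double mutants and 2774 to 2937 in wild type, and their part in the Mef2c values was not tested.

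Taking only the brightest probe set per gene, 1 of the 9 members fell (Myod1), 0 rose and 8 were not called, where 8.14% of 18193 genes fell, 6.56% rose and 14.7% were called. By the mean of all probe sets of each gene 4 of 9 were called, all lower: Myod1, Met, Lbx1 and Pax7. The share of all genes called in that fit was not counted, and the 14.7% belongs to the brightest probe sets. With the arrays shifted to equal medians, 9 of the 19 probe sets were called, all lower. That shift gave 9625 calls among all 45037 probe sets, 39.2% of them higher, where 8206 were called without it. The deposited medians were 5.39 to 5.47 in double mutants and 5.30 to 5.38 in wild type, and the shift moved the median difference of all probe sets from -0.01 to -0.10, and both Pax7 and both Lbx1 probe sets, Msc and 2 of Mef2c then passed beside Met and Myod1. With wild type 1 or 2 left out, 0 of the 19 members were called, where 2939 and 0 of all 45037 probe sets were. Without wild type 3, 1 member, Met 1422990_at, and 5108 of all probe sets were called. The low member counts thus went with fewer calls over all probe sets, compared with 8206. With any 1 array left out, the differences of the 3 called probe sets kept their sign. Without 1 array they ran from -3.19 to -2.62 for Met 1422990_at, from -1.28 to -0.93 for Myod1 1418420_at and from -0.85 to -0.66 for Lbx1 1422323_a_at. Differences that were small or overlapping in all 5 arrays could turn: without double mutant 2, Mef2c 1424852_at stood at 0.18 and Met 1434447_at at 0.15, without wild type 2 Myf5 stood at -0.04, and without wild type 3 the dim Myod1 1447675_x_at stood at 0.02. With a covariate for the Gapdh 3' minus 5' probe set difference (0.16 to 0.27 in double mutants, -0.14 to -0.06 in wild type) no member was called. In that limma fit 0 of all 45037 probe sets were called. An unadjusted p under 0.05 was reached by 8 of the 19 members and by 4259 of all probe sets. The covariate did not overlap between genotypes, so this fit can hardly separate it from genotype.

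The genes that muscle precursors use on their way were called in both directions. Of 17 measured migration and progenitor genes, 2 rose, 2 fell and 13 were not called, with a median difference of -0.14 (median of all genes -0.02). That is 23.5% called, where 14.7% of all genes were called by their brightest probe sets. Cxcr4, the chemokine receptor that guides a share of limb precursors and is also present on endothelium, read 6.50 and 6.67 in double mutants and 7.85, 7.41 and 7.34 in wild type, a fall of 0.95 on the log2 scale (SE 0.19, adjusted p = 0.0381). Pitx3, a homeobox factor of differentiating muscle, read 5.75 and 5.78 against 6.42, 6.71 and 6.77 (-0.87 ± 0.13, adjusted p = 0.0198). Both groups of each gene stood apart.

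Dach2, a cofactor of homeobox and Eya factors that act with Pax3, rose. It read 6.97 and 7.13 in double mutants and 6.53, 6.53 and 6.60 in wild type (0.50 ± 0.07, SE, adjusted p = 0.0181). Meox2, a homeobox gene needed for limb muscle, read 10.90 and 10.88 against 10.54, 10.53 and 10.64 (0.32 ± 0.06, adjusted p = 0.0298). Six4, next in order of p, read 8.85 and 8.87 against 9.40, 9.17 and 9.11 and was not called (-0.37 ± 0.10, adjusted p = 0.0847). Other probe sets of genes in this list gave 5 calls lower and 0 higher.

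Among signals that limb mesenchyme and ectoderm offer to the precursors, 2 of 13 genes rose, 1 fell and 10 were not called by their brightest probe sets. The share called was 23.1%, beside 14.7% of all genes. Other probe sets of these genes gave 1 call higher and 7 lower, so here too the balance depended on the probe set. Cxcl12, the ligand of Cxcr4, read 9.52 and 9.56 in double mutants and 10.14, 9.99 and 9.85 in wild type. It fell by 0.46 on the log2 scale (SE 0.10, adjusted p = 0.0474), so ligand and receptor were both called lower. Hgf, the ligand of Met, read 6.40 and 5.99 against 5.87, 5.42 and 5.45 (0.61 ± 0.21, adjusted p = 0.126), while a dimmer Hgf probe set was called lower (-0.66, adjusted p = 0.0302). The Hgf direction therefore depended on the probe set. Fgf8 (1.29 ± 0.25) and Wnt6 (0.88 ± 0.16), ectodermal signals, were the 2 that rose. Shh read 7.38 and 9.06 against 6.95, 6.47 and 5.75, with no call (1.83 ± 0.65, adjusted p = 0.141) and with double mutant 2 far above the rest.

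Partners and inhibitors of the bHLH factors gave 3 rises and 0 falls among 22 measured genes by their brightest probe sets. That is 13.6% called, near the 14.7% of all genes. Other probe sets of the same genes gave 3 calls higher and 6 lower, so the balance depended on the probe set. Tcf3, which encodes the E proteins that pair with Myod1, read 11.10 and 11.22 in double mutants and 10.60, 10.73 and 10.71 in wild type (0.48 ± 0.07, SE, adjusted p = 0.0205). A second Tcf3 probe set was called lower (-0.48, adjusted p = 0.0281). Id1, which sequesters E proteins and so holds Myod1 back, read 12.29 and 12.22 against 11.83, 11.91 and 11.77 (0.42 ± 0.07, adjusted p = 0.0245). Hey1, a bHLH repressor downstream of Notch, read 9.69 and 9.89 against 9.45, 9.28 and 9.37 (0.43 ± 0.09, adjusted p = 0.0461). Id2 (0.36 ± 0.08, adjusted p = 0.0559) and Id3 (-0.19 ± 0.05, adjusted p = 0.0883) were not called on their brightest probe sets, and another Id2 probe set was (2.49, adjusted p = 0.0073). With equal array medians 0 of these 22 genes were called. Myf6, the bHLH factor of late fibres, stood at a mean of 3.19 in double mutants (SD 0.03) and 3.38 in wild type (SD 0.20), close to Trpn.

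**Figure D3:**
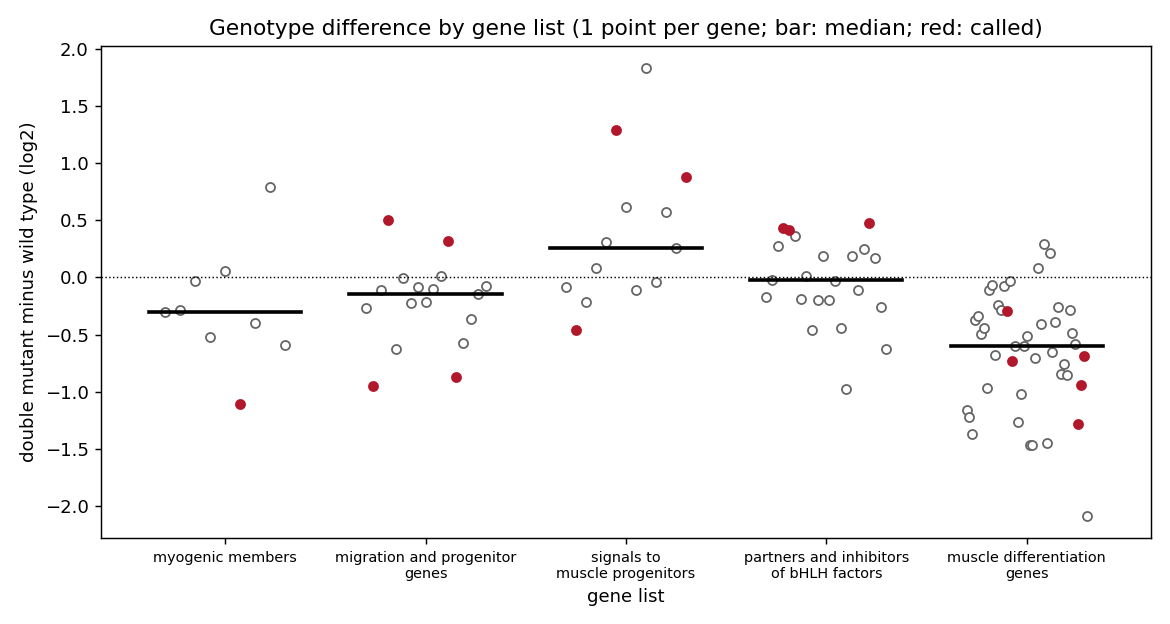
Double mutant minus wild type difference in log2 units (vertical axis) for each gene of the 5 myogenic lists (horizontal axis), 1 point per gene by its brightest probe set, with the list median as a bar and called genes in red. The muscle differentiation list has the lowest median, -0.60, with 5 of 43 genes called.

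Genes of differentiated muscle were lower in the mean almost throughout, in 40 of 43, but 5 fell by the test, 0 rose and 38 were not called (11.6% called, background 14.7%). Their median difference was -0.60, beside -0.02 over all genes. The 5 were Tpm1 and Tpm2, tropomyosins also made by other cells, Musk, the receptor kinase of the neuromuscular synapse, Tnnt3, the fast troponin T, and Jsrp1, a protein of the muscle calcium-release junction. Tpm1 read 11.46 and 11.36 in double mutants and 12.38, 12.44 and 12.25 in wild type (-0.94 ± 0.08, SE, adjusted p = 0.0082). Tpm2 read 9.99 and 9.97 against 10.60, 10.69 and 10.72 (-0.68 ± 0.06, adjusted p = 0.0082). Each of these tropomyosins had a second probe set called lower (-0.85 and -0.65), and over the list other probe sets gave 4 calls lower and 0 higher.

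Tnnt3 read 4.92 and 4.45 against 5.85, 6.06 and 5.98 (-1.28 ± 0.17, SE, adjusted p = 0.0161). Musk read 4.48 and 4.57 against 5.32, 5.25 and 5.18 (-0.73 ± 0.07, adjusted p = 0.0089), and Jsrp1 6.17 and 6.10 against 6.40, 6.47 and 6.40 (-0.29 ± 0.05, adjusted p = 0.0305). In all 5 called genes both double mutants lay under every wild type array, and in Tnnt3 double mutant 2 was the lower of them. Musk and Tnnt3 were dim in double mutants.

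The other muscle genes split the double mutants. Double mutant 2 was below double mutant 1 in 40 of 43 muscle genes, 93% of them, compared with 44.9% of all genes. Against the wild type mean the median gene of the list stood at -0.12 in double mutant 1 and at -0.99 in double mutant 2, while the wild type arrays themselves stood at -0.18, 0.01 and 0.17. Double mutant 1 was below all wild type arrays in 16 of 43 genes and double mutant 2 in 39 of 43. Over all genes these counts were 6487 and 6385 of 18193. The median SD of a gene was 0.61 between the double mutants and 0.22 between wild type arrays.

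Ttn, Neb, Myh3 and Myl4 show the split most plainly and were picked after their values were seen. Ttn, the giant sarcomere protein, read 8.32 and 4.82 in double mutants and 8.80, 8.32 and 8.84 in wild type. Neb, which encodes nebulin of the thin filament, read 6.74 and 3.96 against 6.06, 6.97 and 7.37. Myh3, the embryonic myosin heavy chain, read 9.76 and 7.52 against 9.24, 9.66 and 10.08. Myl4, an embryonic light chain, read 8.06 and 6.00 against 7.94, 8.60 and 8.94. In each of these double mutant 1 sat within the wild type range or at its edge and double mutant 2 far under it.

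Actc1 and Myl1, the main actin and a myosin light chain of early muscle, were also picked after their values were seen and were graded. Actc1 read 11.86 and 10.60 against 12.22, 12.51 and 12.62 (-1.22 ± 0.42, SE, adjusted p = 0.131). Myl1 read 9.96 and 8.81 against 10.56, 10.94 and 11.05 (-1.46 ± 0.40, adjusted p = 0.0785). Here both double mutants were below wild type and double mutant 2 lower again. Without double mutant 2 the median difference of the list was -0.12, with 31 of 43 genes below 0, and without double mutant 1 it was -0.99, with 40 of 43.

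**Figure D4:**
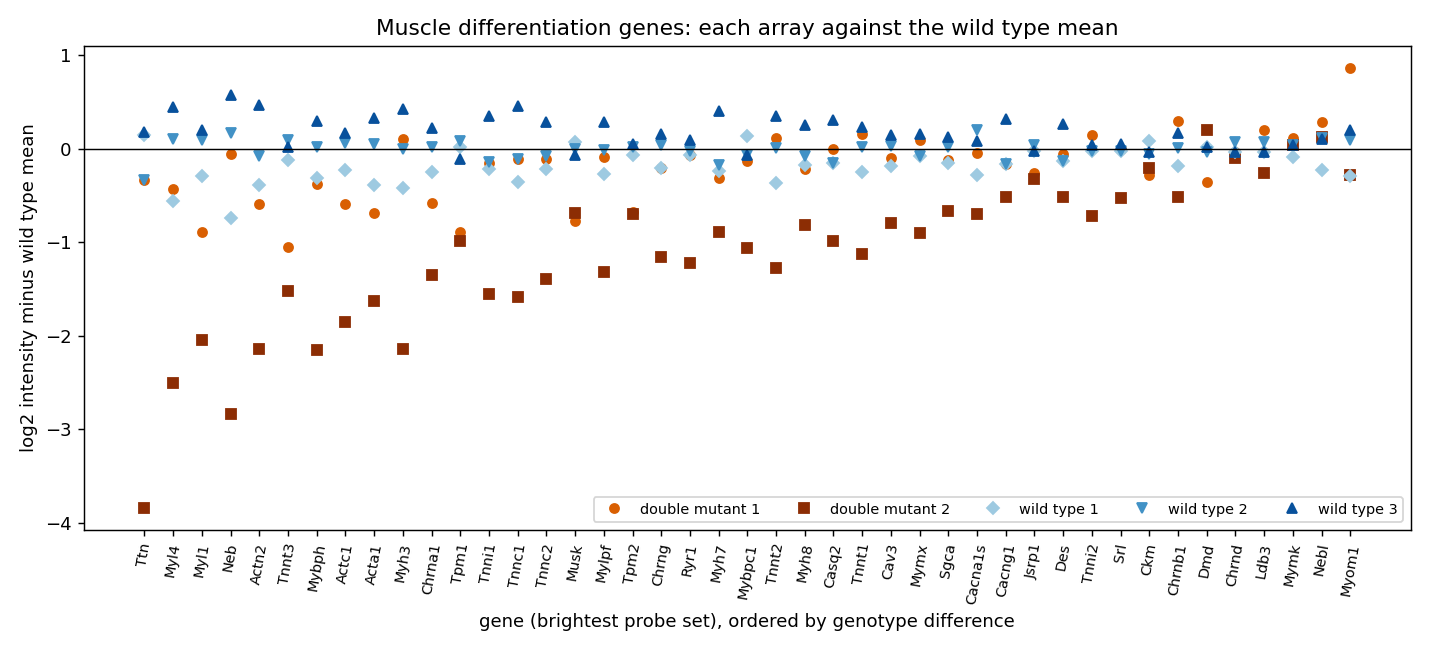
Log2 intensity minus the wild type mean (vertical axis) of 43 muscle differentiation genes (horizontal axis, ordered by genotype difference), 1 point per array. Double mutant 2 lies under the other arrays across most of the list, while double mutant 1 is close to wild type except at genes such as Tpm1, Tpm2, Tnnt3 and Musk.

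The regulators shared this order of arrays in part. Double mutant 2 was below double mutant 1 in 13 of 19 member probe sets (68.4%) and in 43.6% of all probe sets. Among the 13 were probe sets of Myog, Msc, Mef2c, Met, Pax7 and Myod1. Double mutant 2 was above for all 3 of Pax3, for Lbx1 1422323_a_at and, by 0.01, for Myf5, and equal for Myod1 1447675_x_at. Against the wild type mean the median member probe set stood at -0.26 in double mutant 1 and -0.66 in double mutant 2. Myod1, Met on 1422990_at and Lbx1 on 1422323_a_at were low in both, and so did not rest on double mutant 2 for their direction.

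Markers of other cells in the bud did not all follow. Of 8 macrophage markers 2 fell (25%) and 0 rose, where 14.7% of all genes were called by their brightest probe sets. Their summed intensities were 742 to 897 in double mutants and 1078 to 1173 in wild type. Of 5 erythroid markers 3 fell (60%) and 0 rose, with sums of 24567 to 28140 against 30168 to 33325. By brightest probe sets neural markers gave 0 calls among 10 (limma, 3 at an unadjusted p under 0.05), with sums of 731 to 736 against 718 to 766. The sums of the 5 neural crest and Schwann markers overlapped, at 688 to 911 and 720 to 873, with 1 fall, Cdh19. The 7 somite and trunk markers, from the tissue that muscle precursors leave, summed to 726 to 998 against 766 to 772, with 1 fall, Meox1. For comparison the 43 muscle genes summed to 9982 to 18238 against 21852 to 27407, and the part of other cell types in the regulators' values was not tested.

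Likeness was measured as the Euclidean distance between mean-centred log2 profiles over the 5 arrays among 11536 genes above the median level. The profiles nearest to Pax3 were those of Prcc (0.13), 4632415L05Rik (0.22) and Esf1 (0.24). Nearest to Myod1 were Aebp1 (0.09), Retsat (0.10) and Loxl1 (0.11). A distance under 0.5 was reached by 37 genes for Pax3 and by 246 for Myod1. Both double mutants lay below all wild type arrays, as for Myod1, in 3214 of 11537 genes above the median level. That order of arrays was thus a common one.

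Some deposited values were the same in several arrays. Of the 19 member probe sets 6 had the same value, to 6 decimals, in at least 2 arrays, and 1, Met 1434447_at, in 3. Over all probe sets 21842 of 45037 had a repeat, and 10229 had the same value in at least 3 arrays. The effect of such repeats on the calls was not tested. Where replicates of a group share a value, as on Met 1434447_at, their SD is 0, and the step that made the values equal was not given. Some repeats crossed the genotypes. Myf5 and Pax3 1441743_at read the same in double mutant 1 and wild type 1, and Ttn in double mutant 1 and wild type 2. On that Pax3 probe set and on Ttn the groups met only at the shared value.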

How the data were processed

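Biotin-labelled RNA of 5 forelimb samples was measured on single-channel Affymetrix arrays, per the labels, after a labelling kit with 2 rounds of amplification. The deposited values were linear intensities, 1 per probe set and array, with array medians from 39.4 to 44.4. RMA and limma are named in the submitters' processing notes, without version or order, and no source used here gives their settings. No further normalization was made, and log2 was taken with no pseudocount.

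The 64 control probe sets were left out. Genotypes were tested by limma 3.58.1 under R 4.3.3 (1 mean per genotype, eBayes without trend, 3 residual and 1.29 prior degrees of freedom), two-sided, with Benjamini-Hochberg adjustment over 45037 probe sets. The fit was tested on simulated data with independent noise, no repeated values and no preparation difference between groups. That run checks the code and cannot check the calls made here. With 5 arrays, their number limits the precision. Symbols came from the platform annotation (34945 probe sets with 1 symbol, 932 with several, 9160 with none), and all 19 member identifiers matched the reference gene table. Lists used the brightest probe set of each gene. Named were all member probe sets, each list's called genes and up to 5 of smallest p, and genes said to be picked after their values. Myf6 and some cell markers were named outside that rule. The members and lists were chosen with earlier results of these data known. Alternatives were scaling, a pseudocount of 16, a filter at the median level, an intensity trend, array weights, a block, a covariate and leaving out each array.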

Additional observations from a re-analysis of the deposited data

Results flagged for a closer look

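The poly-A spike-in Dap was 3.79 log2 units higher in double mutant than in wild type arrays. It was singled out because control probe sets lie outside the comparison of genes and their signal in double mutants exceeded that in the control samples. The spike-ins Thr, Phe and Lys were also higher in double mutants, by 1.73, 1.81 and 1.55. Whatever made the spike-ins differ cannot be told apart from genotype. Its part in the differences of Met, Myod1 and Lbx1 was not tested.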

How the results depend on the processing

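With the replicate block, 2351 probe sets were called (8206 without it), 1 member probe set (Met 1422990_at), and 0 genes of each of the 5 myogenic lists. No label says that the replicate numbers pair the samples. Deviations from the group means of same-numbered arrays correlated at 0.09 and 0.12. These values cannot decide it, because the deviations of 2 double mutants mirror each other. With the Gapdh 3' minus 5' covariate limma called 0 probe sets (4259 had an unadjusted p below 0.05), and so 0 members and 0 genes of the lists. The covariate did not overlap between genotypes, so a loss of calls was likely whatever the genes do. That loss says little about the members. Equal array medians gave 9625 probe sets in all, 9 member probe sets, 4 of 9 member genes, 9 muscle differentiation genes and 0 partners and inhibitors. Keeping only probe sets above the median gave 7573 of 22518 probe sets in all and 2 member genes. The mean of all probe sets per gene gave 4 member genes, 7 migration, 5 signal and 5 partner genes, and the share of all genes called there was not counted. Leaving out 1 array gave 0 to 5108 probe sets in all (0 without double mutant 1 or wild type 2, where 14059 and 11115 had an unadjusted p below 0.05), 0 to 1 member probe sets, 0 member genes, 0 to 2 migration genes, 0 to 1 signal genes, 0 partner genes and 0 to 4 muscle differentiation genes. A lone double mutant was assumed to vary like the wild type arrays. Array weights ended the Lbx1 call (adjusted p = 0.0570). Of 244 values of single member probe sets under the alternatives, 216 kept their side of the threshold, 20 lost a call, 8 gained one and 0 reversed a call. The cause of these changes was not tested. Dim probe sets such as Myod1 1447675_x_at, at the level of Trpn, limit what can be seen.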
